A study of Mus musculus with 11 samples.

Results

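The genes of mitochondrial fatty acid oxidation and ketogenesis were followed in mouse liver across 3 groups of mice. The set was a list of 31 genes, taken by gene symbol, and 29 of them had at least 1 probe set with that symbol alone. They were covered by 46 of 22690 probe sets on each array. Acsl1 and Ucp2 were not analysed here, and 1 further probe set that Acot2 shares with Acot1 was left out of the tests. All 29 genes passed the filter on dim probe sets (a mean signal of at least about 53.0), which was set over all arrays and not within a group, and 7924 genes were tested in all.

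Liver RNA from 11 male mice on a mixed genetic background was measured on 1 oligonucleotide array per mouse. The groups were Akt1 double transgenic (DTG) mice fed a high-fat diet (4 arrays), wild-type mice fed the same high-fat diet (4 arrays) and wild-type mice fed a normal diet (3 arrays). The question set by the series title is how the diet, and muscle growth driven by Akt1, bear on liver gene expression. All mice, the wild-type controls included, received doxycycline for 3 weeks, a drug used to switch on inducible transgenes. Muscle hypertrophy is marked in the labels for the DTG mice alone. The labels name neither the promoter that drives the transgene nor the age or feeding state of the mice. No DTG mice fed a normal diet were among the samples, so an effect of the transgene that depends on diet could not be tested. Precision is limited by the number of arrays.

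Fatty acid oxidation in liver mitochondria starts when a fatty acid is bound to coenzyme A and handed to carnitine for transport across the mitochondrial membranes. Inside, a cycle of dehydrogenation, hydration, a further dehydrogenation and thiolysis shortens the chain and releases acetyl-CoA, which the fasting liver turns into ketone bodies. The nuclear receptor PPARA, which binds fatty acids, is a known activator of many genes of this pathway in the liver. In bulk tissue, fewer cells of a type and less RNA per cell cannot be told apart.

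The PPARA receptor binds, together with RXR, a pair of AGGTCA hexamers in the same orientation spaced by 1 base. The RefSeq promoter windows (GRCm38.p6, 250 bases before to 50 after the start) of 28 of the 31 genes, 30 windows in all, were searched on both strands with up to 2 mismatches in the 12 fixed letters and any spacer base. A match was found in 4 windows (13.3%), against 3.86% of all 32851 windows. They are shown because PPARA is the known common regulator of these genes. The matched letters are in capitals, and each line reads 5′ to 3′ along the gene. Fabp1 (chr6:71199782-71199854, plus strand) matched on the opposite strand with 1 mismatch, starting at position -67 from the start. Etfa (chr9:55512278-55512350, minus strand) matched on the opposite strand with 2 mismatches at -77. Echs1 (chr7:140116462-140116534, minus strand) matched in the gene's direction with 2 mismatches at -83, and Slc25a20 (chr9:108662112-108662154, plus strand) with 2 mismatches at 7 bases into the transcript. A match is a description of the letters and not a binding site, and windows of this length leave out more distant elements.
Fabp1: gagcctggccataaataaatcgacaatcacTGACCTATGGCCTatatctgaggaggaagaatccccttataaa
Etfa: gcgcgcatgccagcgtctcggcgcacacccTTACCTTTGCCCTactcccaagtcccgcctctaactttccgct
Echs1: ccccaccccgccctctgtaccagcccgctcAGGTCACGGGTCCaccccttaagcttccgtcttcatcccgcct
Slc25a20: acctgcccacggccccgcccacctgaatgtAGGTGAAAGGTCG

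Before the groups were compared, the arrays were checked. Trimmed mean signals lay between 498.75 and 499.91. DTG arrays 3 and 4 had the highest top signals, at 42426 and 43273, against 27780 to 35450 on the other 9 arrays. The poly-A spikes averaged 92.1 on DTG array 3 and 231.1 to 371.6 elsewhere, and the Gapdh 3′ to 5′ signal ratio was 0.823 on that array and 0.669 to 0.768 elsewhere. Among hepatocyte markers 6 of 7 were measured, among them Fabp1, which also belongs to the pathway set. Their summed signal was 139108 to 187326 in DTG mice, 133935 to 148078 in wild-type high-fat mice and 114865 to 138714 in wild-type normal-diet mice. Kupffer cell markers (6 measured, 1 under the filter) summed to 2489 to 8190 in DTG mice, 1961 to 5146 in wild-type high-fat mice and 1269 to 2904 in normal-diet mice, with DTG array 3 at 2489. All 5 skeletal muscle, all 6 neutrophil, all 4 lymphocyte and both measured adipocyte markers had mean signals under the filter. Endothelial markers (4 measured, 0 under the filter) summed to 2700 to 3420 in DTG mice, all above the 2039 to 2647 in wild-type high-fat mice, and to 2189 to 3148 in normal-diet mice. Stellate cell markers (5 measured, 2 under the filter) summed to 4158 to 5317 in DTG mice, 3862 to 6465 in wild-type high-fat mice and 3602 to 4331 in normal-diet mice. Bile duct markers (4 measured, 3 under the filter) summed to 63.3 to 266.9 in DTG mice, 66.7 to 148.4 in wild-type high-fat mice and 99.1 to 208.3 in normal-diet mice. The 1 erythroid marker measured had 161.5 to 419.8 in DTG mice, 331.9 to 468.2 in wild-type high-fat mice and 221.2 to 1517 in normal-diet mice. The part of these cell types in the results below was not tested. Akt1 itself had liver signals of 446, 585, 434 and 519 in DTG mice, 447, 421, 513 and 489 in wild-type high-fat mice and 482, 392 and 371 in normal-diet mice. The groups overlapped, with a log2 difference of 0.080 ± 0.13 (SE) between DTG and wild-type high-fat mice (limma adjusted p = 0.830).

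Between DTG and wild-type mice on the high-fat diet, no gene of the pathway passed the test, and Cpt1a, 1.37-fold higher in DTG mice, had the smallest p-value of the 29. Limma, fitted on all genes with Benjamini-Hochberg adjustment, called 0 of the 29 genes at an adjusted p of 0.05, where 0.366% of all genes were called. At an unadjusted p under 0.05 there were 4 genes (Cpt1a, Echs1, Acadsb and Etfb), a share of 13.8%, which is close to the 13.7% of all genes. The median log2 difference was 0.060 over the 29 genes and 0.0010 over all genes, and 20 of the 29 lay above 0. For 26 of the 29 the 95% interval of the difference lay within 1 log2 unit of 0, and for 15 within 0.5. The 3 with wider intervals were Slc22a5, Pdk4 and Acot2. Without DTG array 3 the median was -0.054 and 9 of 29 lay above 0, and without wild-type high-fat array 2 the median was -0.016 and 13 of 29 lay above 0. Leaving out either of these arrays thus turned the sign of the median.

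**Figure D1:**
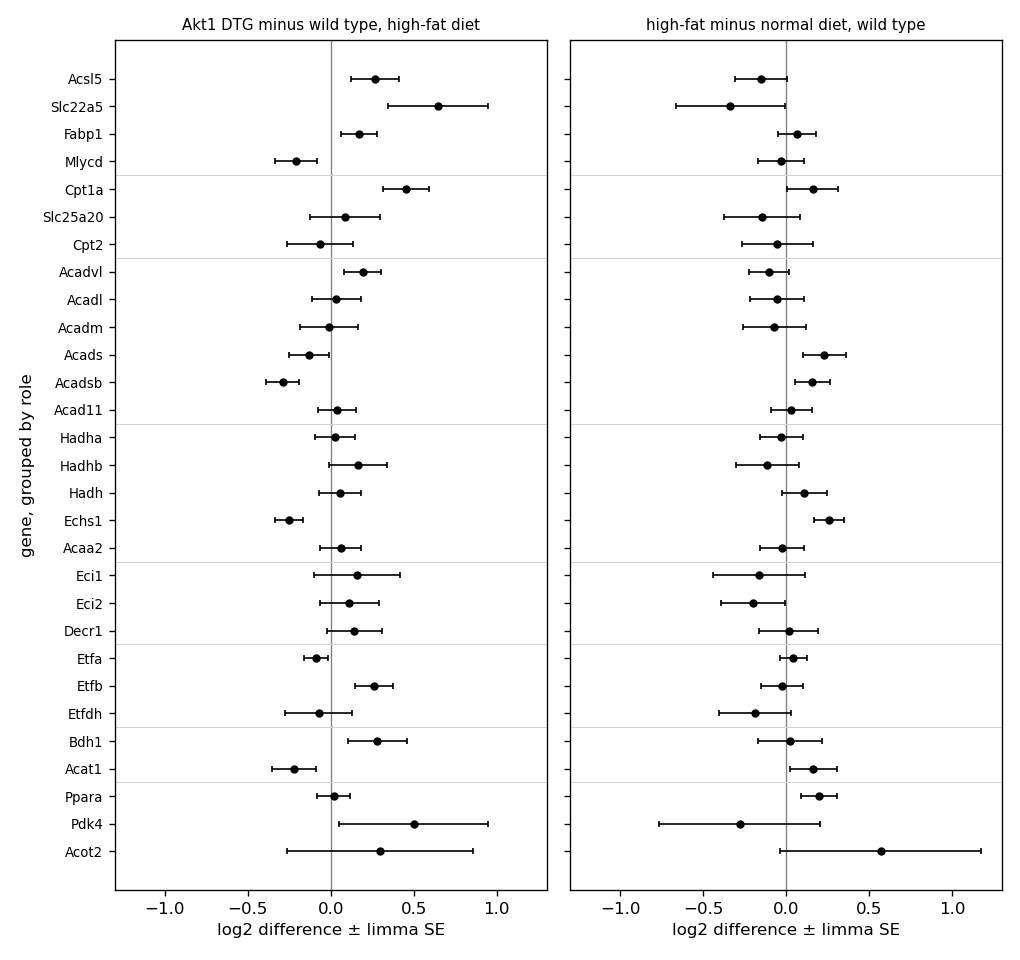
Log2 differences (x axis) of the 29 fatty acid oxidation genes (y axis, grouped by role), with limma's standard error as whiskers, for DTG minus wild-type mice on the high-fat diet (left) and for high-fat minus normal diet in wild-type mice (right). Most points lie within 0.5 of 0, and Slc22a5 at 0.64 (left) and Acot2 at 0.57 (right) lie farthest out.

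Cpt1a encodes carnitine palmitoyltransferase 1A, the liver enzyme that loads long-chain acyl groups onto carnitine at the outer mitochondrial membrane and sets the pace of oxidation. Its signal was 7253, 7748, 11058 and 9213 on the DTG arrays, against 6284, 6985, 6076 and 6108 on the wild-type high-fat arrays. The lowest DTG array lay above the highest wild-type high-fat array, and DTG array 3 was the highest. The log2 difference was 0.45 ± 0.14 (SE), a 1.37-fold higher signal with a 95% interval of 0.15 to 0.76 in log2 units, and it did not pass after adjustment (limma adjusted p = 0.188). Cpt1a was the only one of the 29 genes with all DTG arrays above all wild-type high-fat arrays (3.45%), where 4.32% of all genes showed that separation. Without DTG array 3 the log2 difference was 0.34 (limma adjusted p = 0.333), and without arrays 3 and 4 it was 0.24 (limma adjusted p = 0.555). Leaving out arrays cannot make separated groups overlap, and 6.41% of all genes were separated upward without DTG array 3.

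Of the other probe sets of Cpt1a, one had 568, 663, 1308 and 1267 in DTG mice, against 542, 693, 425 and 484 in wild-type high-fat mice, so DTG arrays 3 and 4 were high and the groups overlapped. Its log2 difference was 0.75 (limma adjusted p = 0.332 over all probe sets). The remaining one, at 304 to 1741 in DTG mice and 191 to 1986 in wild-type high-fat mice, varied more within the groups (SDs of 1.229 and 1.497 log2 units) than between them (a log2 difference of 0.34). Both belong to a class of probe sets that can also bind other transcripts.

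The partners of Cpt1a in the carnitine shuttle did not share its separation. Slc25a20, the carrier that exchanges acylcarnitine across the inner membrane, had 4111, 3707, 7125 and 5231 in DTG mice, against 5111, 3191, 4822 and 5714 in wild-type high-fat mice. Cpt2, which returns the acyl group to coenzyme A in the matrix, had 2046, 1909, 3911 and 2336 in DTG mice, against 2893, 2052, 2623 and 2729 in wild-type high-fat mice. For both, DTG array 3 was the highest of the 8 arrays and the other DTG arrays lay within or below the wild-type range. The log2 differences were 0.085 ± 0.21 for Slc25a20 and -0.063 ± 0.20 for Cpt2 (SE), with 95% intervals of -0.38 to 0.55 and -0.50 to 0.37.

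**Figure D2:**
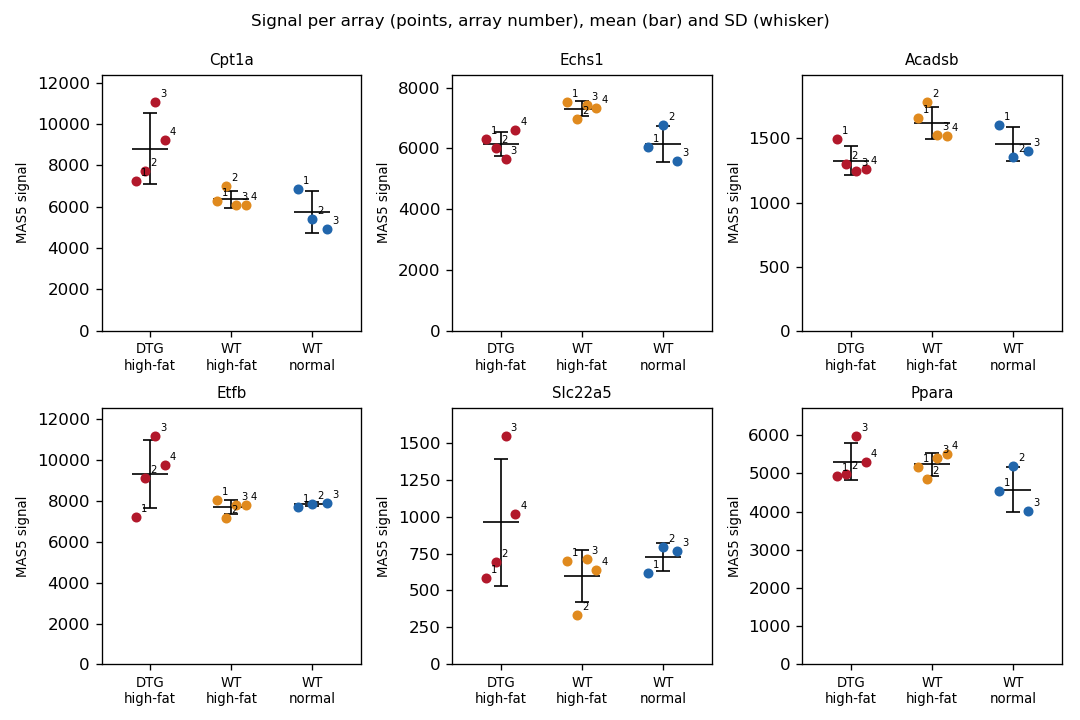
MAS5 signal (y axis, linear, from 0) of 6 genes in DTG high-fat, wild-type high-fat and wild-type normal-diet mice, with 1 numbered point per array, the mean as a bar and the SD as whiskers. All DTG points of Cpt1a lie above the wild-type points, and for Echs1 and Acadsb all DTG points lie below those of wild-type high-fat mice.

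Of the genes that supply fatty acids to the pathway, 4 of 5 were measured. Slc22a5, the OCTN2 transporter that brings carnitine into the cell, had 583, 694, 1546 and 1019 in DTG mice, against 697, 336, 712 and 642 in wild-type high-fat mice. DTG arrays 3 and 4 were above every wild-type array, while DTG array 1 lay below 3 of them. The log2 difference was 0.64 ± 0.30 (SE, limma adjusted p = 0.373), and a dimmer probe set gave 0.49 (limma adjusted p = 0.460). The 0.64 was 0.38 without DTG array 3, 0.39 without wild-type high-fat array 2 and 0.15 without DTG arrays 3 and 4. Acsl5, a long-chain acyl-CoA synthetase, had 5760, 6860, 7791 and 6151 in DTG mice, against 4873, 6612, 4987 and 5630 in wild-type high-fat mice, a log2 difference of 0.27 ± 0.15 with overlapping arrays. Fabp1, the fatty acid binding protein of hepatocytes, differed by 0.17 ± 0.11, and Mlycd, which breaks down malonyl-CoA, the inhibitor of CPT1, by -0.21 ± 0.13 (log2, SE).

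The acyl-CoA dehydrogenases catalyse the first step of each cycle and differ in the chain lengths they accept. Acadvl, for very long chains, had 7040, 6229, 9088 and 7335 in DTG mice, against 6537, 5896, 6885 and 6477 in wild-type high-fat mice. Acadl, for long chains, had 5044, 4737, 7998 and 6184 in DTG mice, against 6087, 5141, 6130 and 5607 in wild-type high-fat mice. Acadm, for medium chains, had 10011, 10327, 16499 and 12452 in DTG mice, against 12792, 8792, 13938 and 13912 in wild-type high-fat mice. In all 3, DTG array 3 was the highest array and the groups overlapped. The log2 differences were 0.19 ± 0.11 for Acadvl, 0.034 ± 0.15 for Acadl and -0.0095 ± 0.18 for Acadm (SE), and the interval for Acadm was -0.39 to 0.37.

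Acads, for short chains, had 2102, 1768, 2609 and 2348 in DTG mice, against 2357, 2119, 2465 and 2642 in wild-type high-fat mice, a log2 difference of -0.13 ± 0.12 with overlap. Acadsb, the enzyme for short branched chains that also serves isoleucine breakdown, had 1492, 1301, 1247 and 1261 in DTG mice, against 1656, 1782, 1524 and 1522 in wild-type high-fat mice. Every DTG array lay below every wild-type high-fat array, and DTG array 3 was the lowest. The log2 difference was -0.29 ± 0.099 (SE), with a 95% interval of -0.51 to -0.076 (limma adjusted p = 0.224), from a single probe set of the class that can bind other transcripts. Acad11, a further member of this family, differed by 0.037 ± 0.12.

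For the later steps of the cycle, Hadha and Hadhb encode the subunits of the trifunctional protein, which carries out hydration, dehydrogenation and thiolysis of long chains. Hadha had 4208, 4014, 5893 and 4378 in DTG mice, against 4653, 4057, 4600 and 4694 in wild-type high-fat mice. Hadhb had 6985, 6614, 11857 and 8269 in DTG mice, against 7731, 6469, 8361 and 6850 in wild-type high-fat mice. DTG array 3 was again the highest for both and the groups overlapped, with log2 differences of 0.024 ± 0.12 and 0.17 ± 0.17 (SE). Hadh, the dehydrogenase for shorter chains, differed by 0.056 ± 0.12 at its brightest probe set, and Acaa2, a thiolase, by 0.060 ± 0.12. A dim probe set of Hadh had a log2 difference of 1.27 (limma adjusted p = 0.262 over all probe sets), while a brighter one had -0.065. The brightest and the dim probe set of Hadh belong to the class that can also bind other transcripts.

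Echs1, the short-chain enoyl-CoA hydratase that adds water in the step after the dehydrogenases, had 6295, 6009, 5664 and 6598 in DTG mice, against 7517, 6961, 7425 and 7330 in wild-type high-fat mice. Every DTG array lay below every wild-type high-fat array, at a log2 difference of -0.25 ± 0.085 (SE) with a 95% interval of -0.44 to -0.069 (limma adjusted p = 0.217). Echs1 and Acadsb were the 2 of 29 genes separated in this direction (6.90%), where 4.09% of all genes were. Leaving out DTG array 3 could not undo this separation, and 5.7% of all genes were then separated downward.

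The auxiliary enzymes for unsaturated fatty acids, the isomerases Eci1 and Eci2 and the reductase Decr1, had log2 differences of 0.16 ± 0.26, 0.11 ± 0.18 and 0.14 ± 0.16 (SE). Electrons from the acyl-CoA dehydrogenases pass through the flavoprotein of Etfa and Etfb to its dehydrogenase Etfdh. Etfb had 7219, 9141, 11199 and 9793 in DTG mice, against 8037, 7198, 7786 and 7806 in wild-type high-fat mice, so 3 DTG arrays lay above all wild-type arrays and DTG array 1 did not. Its log2 difference was 0.26 ± 0.12 (limma adjusted p = 0.350), and 0.17 without DTG array 3. Its partner Etfa was nearly level across the arrays, at 7359 to 7557 in DTG mice and 7474 to 8226 in wild-type high-fat mice, a log2 difference of -0.089 ± 0.074. Etfdh differed by -0.073 ± 0.20.

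Ketone body metabolism was represented by Acat1, the mitochondrial thiolase that joins acetyl-CoA units, and Bdh1, which interconverts acetoacetate and 3-hydroxybutyrate. Bdh1 had 9254, 7375, 11784 and 10640 in DTG mice, against 7429, 8291, 8715 and 7317 in wild-type high-fat mice, with 3 DTG arrays above all wild-type high-fat arrays and a log2 difference of 0.28 ± 0.18 (SE), which was 0.18 without DTG array 3. Acat1 had 10282, 9209, 13638 and 11814 in DTG mice, against 13542, 11139, 14258 and 13143 in wild-type high-fat mice, which overlapped, and its log2 difference was -0.22 ± 0.13 (limma adjusted p = 0.489). All 3 probe sets of Acat1 were lower in DTG mice, with -0.34 and -0.49 at the other 2 (limma adjusted p = 0.496 and 0.296 over all probe sets). Among the 17 further probe sets of 13 of these genes, 11 had the sign of the probe set used, and none of those with the opposite sign had an unadjusted p under 0.05. For high-fat against normal diet in wild-type mice, 9 of the 17 had that sign. For DTG mice against the normal diet, it was also 9 of the 17.

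Ppara had 4942, 4986, 5985 and 5305 in DTG mice, against 5174, 4845, 5414 and 5505 in wild-type high-fat mice. The groups overlapped, and the log2 difference was 0.017 ± 0.10 (SE) with a 95% interval of -0.20 to 0.23. Pdk4, a kinase that shuts off pyruvate dehydrogenase when fat is burned, had a low signal of 57.8, 154, 312 and 125 in DTG mice, against 97.5, 50.8, 146 and 121 in wild-type high-fat mice. DTG array 3 was the highest and DTG array 1 among the lowest, with a log2 difference of 0.50 ± 0.45 that was 0.10 without DTG array 3, 0.19 without wild-type high-fat array 2, 0.91 without DTG array 1 and -0.034 without arrays 3 and 4. Acot2, a mitochondrial thioesterase that releases fatty acids from coenzyme A, had 57.0, 75.0, 376 and 88.3 in DTG mice, against 104, 45.6, 145 and 90.1 in wild-type high-fat mice, and differed by 0.30 ± 0.56.

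High-fat feeding of wild-type mice was then set against normal feeding. Echs1 had the smallest p-value, at 1.20-fold higher on the high-fat diet, and no gene passed. Limma called 0 of the 29 genes after adjustment, where 0.0% of all genes (0 of 7924) were called. At an unadjusted p under 0.05 there was 1 gene, Echs1 (3.45%), where 7.02% of all genes reached it. The median log2 difference was -0.026 over the 29 genes and 0.0067 over all genes, and 13 of 29 lay above 0. The median was -0.071 to 0.030 with single arrays left out. The 95% interval lay within 1 log2 unit of 0 for 26 of the 29 and within 0.5 for 19.

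Echs1 had 7517, 6961, 7425 and 7330 on the high-fat diet, against 6030, 6763 and 5597 on the normal diet. All high-fat arrays lay above all normal-diet arrays, at a log2 difference of 0.26 ± 0.091 (SE) with a 95% interval of 0.059 to 0.46 (limma adjusted p = 0.659). It was the 1 gene of 29 with such a separation (3.45%), where 4.58% of all genes were separated upward, and 0 of 29 were separated downward, where 3.33% of all genes were. The wild-type high-fat arrays serve in both comparisons, so the opposite signs of Echs1 in these are not independent.

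Ppara had 5174, 4845, 5414 and 5505 on the high-fat diet, against 4527, 5191 and 4011 on the normal diet, a log2 difference of 0.20 ± 0.11 (SE, limma adjusted p = 0.777). Normal-diet array 2 lay within the high-fat range and the other normal-diet arrays below it. Acads had 2357, 2119, 2465 and 2642 on the high-fat diet, against 2151, 1964 and 2001, a log2 difference of 0.23 ± 0.13 with 1 high-fat array below the top normal-diet array. Acadsb, at 1607, 1355 and 1403 on the normal diet, and Acat1, at 9998, 12342 and 12558, had log2 differences of 0.16 ± 0.11 and 0.16 ± 0.14, and both overlapped with the high-fat values given above.

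Cpt1a had 6284, 6985, 6076 and 6108 on the high-fat diet, against 6881, 5419 and 4944 on the normal diet, and the log2 difference of 0.16 ± 0.15 (SE) had a 95% interval of -0.17 to 0.49. Normal-diet array 1 lay near the top of the high-fat range. Slc25a20, with 4532, 5492 and 5316 on the normal diet, and Cpt2, with 2389, 2899 and 2685, differed by -0.15 ± 0.23 and -0.053 ± 0.21. The normal-diet signals of Acadvl were 6637, 6785 and 7372, those of Acadl 5366, 6623 and 5950, and those of Acadm 12071, 13332 and 12959. These dehydrogenases differed by -0.10 ± 0.12, -0.057 ± 0.16 and -0.072 ± 0.19 (log2, SE) on the high-fat diet, with all 3 overlapping.

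The remaining genes overlapped as well. Hadha was at 4337, 5027 and 4432 on the normal diet and Hadhb at 6580, 8439 and 8918, and the high-fat diet differed by -0.030 ± 0.13 and -0.11 ± 0.19 (log2, SE). Bdh1, at 5550, 9282 and 9193 on the normal diet, spread more within that group than between diets, with a difference of 0.022 ± 0.19. Pdk4, at 108, 131 and 114 on the normal diet, differed by -0.28 ± 0.48. Without high-fat array 2 the difference was 0.029 for Pdk4 and -0.080 for Slc22a5. Slc22a5 (-0.34 ± 0.33 with all arrays), Eci2 (-0.20 ± 0.19), Etfdh (-0.19 ± 0.22) and Acsl5 (-0.15 ± 0.16) were the other genes below -0.15 before rounding on the high-fat diet, together with Eci1 (-0.16 ± 0.28).

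Set against the normal diet, DTG mice on the high-fat diet differ in both genotype and diet, and these arrays also serve in the comparisons above. Limma called 0 of the 29 genes, where 2.08% of all genes were called. At an unadjusted p under 0.05 there was 1 gene, Cpt1a (3.45%), where 18.3% of all genes reached it. Cpt1a had 7253 to 11058 in DTG mice and 4944 to 6881 in normal-diet mice without overlap, a log2 difference of 0.61 ± 0.15 (SE) or 1.53-fold (limma adjusted p = 0.0624). It was the only one of the 29 separated upward, where 8.46% of all genes were, and 0 were separated downward, where 7.10% of all genes were. Without DTG array 1 its limma adjusted p was 0.0412, and without any other array of these groups in turn it was 0.0535 to 0.202. At both other probe sets of Cpt1a these groups overlapped. Their log2 differences were 0.76 and -0.30 (limma adjusted p = 0.285 and 0.902 over all probe sets). The median log2 difference over the 29 genes was 0.052, against 0.0041 over all genes. It was -0.038 without DTG array 3 and -0.0074 after quantile normalization, so its sign turned under both.

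Mice of one group also differed from each other. DTG array 3 held the highest value of 22 of the 29 genes (75.9%), where 13.1% of all genes had their highest value there. The median deviation of the 29 genes from their own mean over 11 arrays was 0.43 log2 units on DTG array 3, where 25 of 29 lay above their mean, as did 67.8% of 400 brightly measured genes. It was -0.16 and -0.18 on DTG arrays 1 and 2, where 25 and 24 of 29 lay below their mean, as did 58.2% and 58.0% of the bright genes, and 0.083 on DTG array 4. Wild-type high-fat array 2, at -0.17, had 24 of 29 below the mean (64.0% of the bright genes), and normal-diet array 1, at -0.11, had 27 (59.2%). Wild-type high-fat array 2 and DTG array 2 each held the lowest value of 9 of the 29 genes, where 7.40% and 7.98% of all genes had their lowest value.

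**Figure D3:**
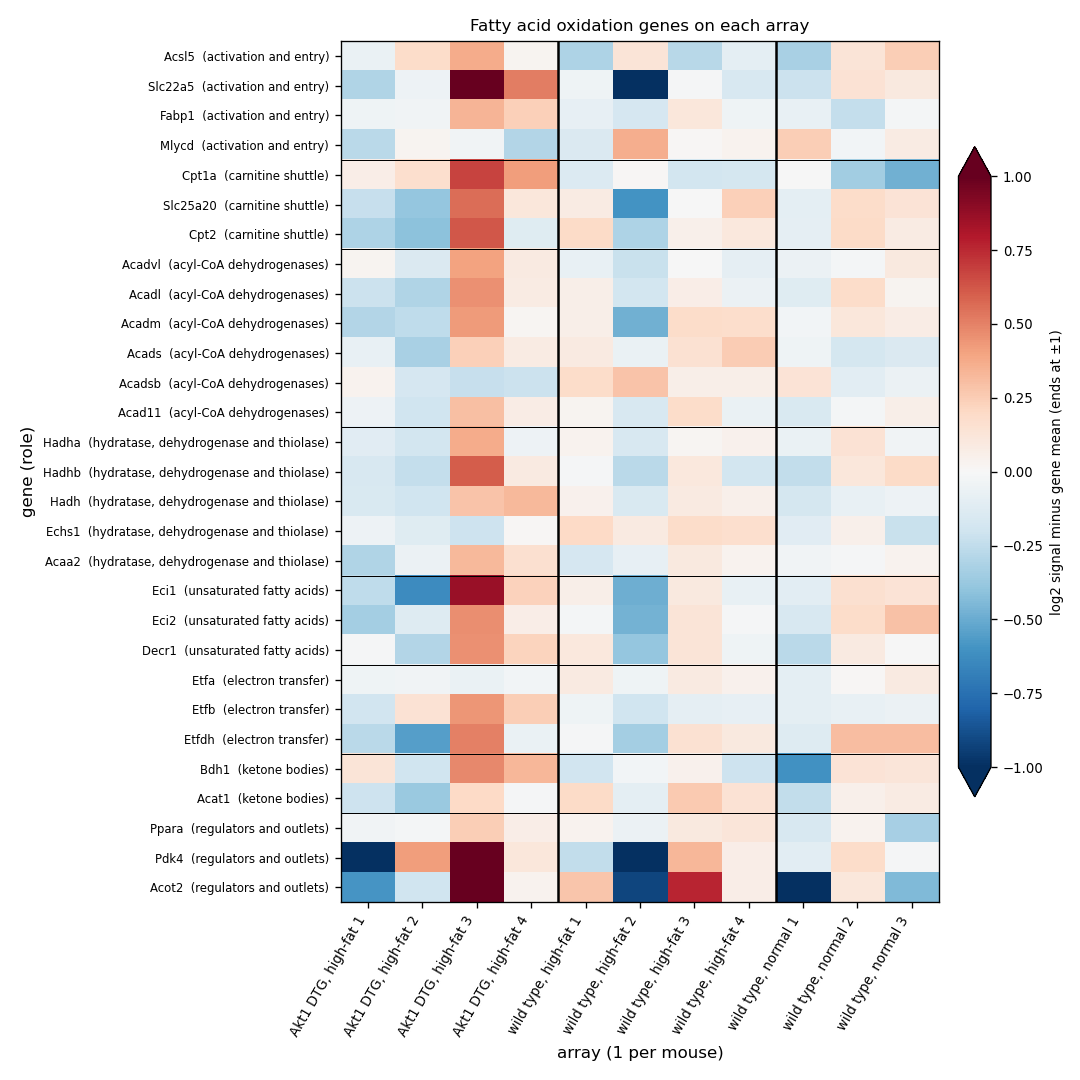
Log2 signal of each of the 29 genes minus the gene's mean over the 11 arrays (colour, red above and blue below), with genes in rows by role and arrays in columns by group, separated by black lines. DTG array 3 is red for 25 of 29 genes, while DTG arrays 1 and 2 and wild-type high-fat array 2 are mostly blue.

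The 22 genes highest on DTG array 3 came from every role, among them all 3 of the carnitine shuttle, all 3 of the enzymes for unsaturated fatty acids, both subunits of the trifunctional protein, Ppara, Pdk4 and Acot2. The exceptions were Mlycd, Acads, Acadsb, Hadh, Echs1, Etfa and Acat1, and Acadsb had its lowest value there. Other probe sets of Slc22a5, Slc25a20, Cpt2, Acad11, Hadhb, Decr1 and Bdh1, and another of Cpt1a, were also highest on DTG array 3. Those of Fabp1 and Acaa2, a dim one of Acadl and the remaining one of Cpt1a were not. For Fabp1 that probe set had its lowest DTG value on array 3 (23705). The spread within DTG mice was widest for Acot2, Pdk4, Eci1 and Slc22a5, with SDs of 1.22, 1.00, 0.65 and 0.63 log2 units, and narrowest for Etfa, at 0.017 (n = 4).

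Properties of the arrays were set beside this pattern. The genes of this pathway are brightly measured, and 25 of 29 had a mean signal over 1000. Among the 400 tested genes at least as bright as the median of the 29 (a signal of 6038), 26.5% had their highest value on DTG array 3 and 26.0% on DTG array 4, the arrays with the highest top signals. Of the 29 genes, 1 (Hadh) was highest on DTG array 4 (3.45%), at a probe set of the class that can bind other transcripts. After quantile normalization between arrays, chosen as a check after these values were seen, DTG array 3 held the highest value of 21 of the 29 genes, against 16.5% of the bright genes, and the median deviation there was 0.32. Fabp1 then had its lowest value on DTG array 3, as did Acadsb, Echs1 and Etfa. The part of the low poly-A spike signal of this array in the pattern was not tested. Its hepatocyte marker sum was 186568, next to the highest of the DTG arrays. That sum includes Fabp1, itself 1 of the 29 genes, at 41383 on this array. Its sums were the lowest of the DTG arrays for Kupffer cell (2489), endothelial (2700), stellate (4158), erythroid (161.5) and pancreas (660.9) markers and the highest for bile duct markers (266.9), and their part in the pattern was not tested.

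**Figure D4:**
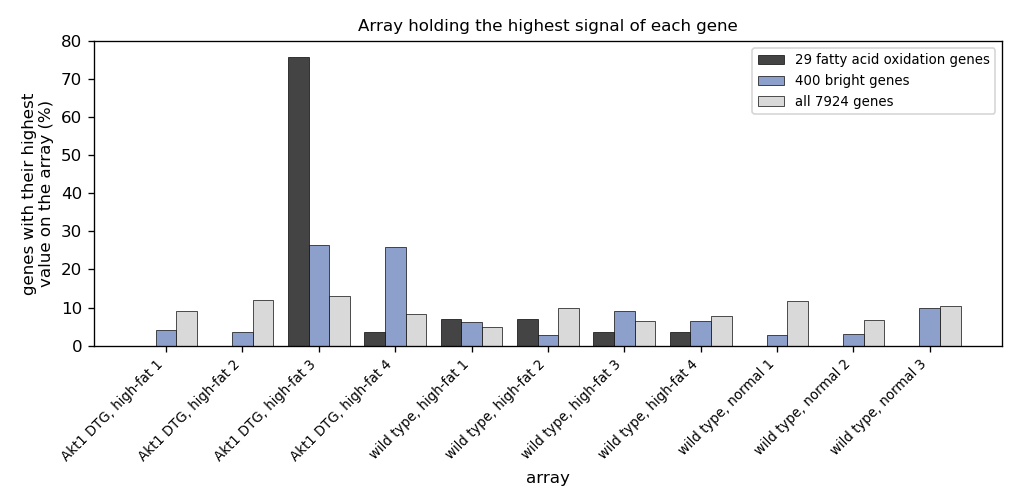
Share of genes (y axis, percent) that had their highest signal on each array (x axis), for the 29 fatty acid oxidation genes (dark), the 400 bright genes (blue) and all 7924 tested genes (grey). DTG array 3 holds 75.9% of the 29 genes, against 26.5% of the bright genes and 13.1% of all genes.

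Of 58 other listed genes of fatty acid oxidation, ketone body and branched-chain acyl-CoA metabolism and their regulators, 47 were tested, and limma called 0 in each of the 3 comparisons. In wild-type mice on the high-fat diet against the normal diet 5 of 47 had an unadjusted p under 0.05 (10.6%, against 7.02% of all genes), and in DTG mice against the normal diet 7 (14.9%, below the 18.3% of all genes). In DTG against wild-type high-fat mice, 8 of 47 had an unadjusted p under 0.05 (17.0%, against 13.7% of all genes), and the median log2 difference was -0.10, with 18 above 0 and 29 below. Angptl4, a secreted lipase inhibitor and known PPARA target, had 2265, 2225, 2927 and 2398 in DTG mice, against 2136, 1142, 1629 and 1356 in wild-type high-fat mice. Ppargc1a, a coactivator of PPARA and of mitochondrial gene expression, had 219, 203, 248 and 225 in DTG mice, against 128, 121, 103 and 157 in wild-type high-fat mice. Both were, like Cpt1a, higher on every DTG array than on every wild-type high-fat array. Their log2 differences of 0.68 ± 0.19 and 0.82 ± 0.28 (SE) did not pass (limma adjusted p = 0.155 and 0.228). They were the 2 of 47 genes so separated upward (4.26%), about the share of all genes (4.32%). On the normal diet Angptl4 had 2525, 1709 and 1655 and overlapped with DTG mice, a log2 difference of 0.34 (limma adjusted p = 0.418). Ppargc1a had 160, 192 and 65.7 there, below every DTG array, a log2 difference of 0.82 (limma adjusted p = 0.186). Against the normal diet 2 of 47 genes were separated upward in DTG mice (4.26%), where 8.46% of all genes were.

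Ivd, the isovaleryl-CoA dehydrogenase of leucine breakdown and a relative of Acadsb, had 1613, 1699, 1316 and 1540 in DTG mice, against 2005, 2300, 1907 and 1778 in wild-type high-fat mice. It was at 1495, 1406 and 1253 on the normal diet, so wild-type high-fat mice were above both other groups without overlap. The log2 difference was -0.37 ± 0.11 for DTG against wild-type high-fat mice (SE, limma adjusted p = 0.179) and 0.53 ± 0.12 for high-fat against normal diet (limma adjusted p = 0.364). The wild-type high-fat arrays serve in both comparisons, so these opposite signs are not independent. Between diets in wild-type mice, 4 of 47 genes were separated upward (8.51%, against 4.58% of all genes). Hibadh, an enzyme of valine breakdown, had 8518, 8038, 7042 and 7825 in DTG mice, against 9522, 8738, 10076 and 9110 in wild-type high-fat mice. It too was lower on every DTG array, with a log2 difference of -0.25 ± 0.086 (limma adjusted p = 0.220), and with Mcat these were 3 of 47 genes separated downward (6.38%, against 4.09% of all genes).

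Cd36, a fatty acid transporter of the cell membrane, had 1173, 737, 3544 and 1363 in DTG mice and 845, 1397, 1938 and 2647 in wild-type high-fat mice, against 165, 904 and 486 on the normal diet. The log2 difference was 1.91 ± 0.60 for high-fat against normal diet in wild-type mice (SE, limma adjusted p = 0.606), with 1 high-fat array below the top normal-diet array. Pdk1, another pyruvate dehydrogenase kinase, had 856, 1500, 295 and 478 in DTG mice and 592, 597, 1662 and 836 in wild-type high-fat mice, against 1983, 2908 and 1858 on the normal diet. Every array of both high-fat groups lay below every normal-diet array. In DTG mice 4 of 47 genes were so separated from the normal diet (8.51%, against 7.1% of all genes). In wild-type high-fat mice it was 3 of 47 (6.38%, against 3.33% of all genes). The log2 difference of Pdk1 from the normal diet was -1.76 ± 0.49 in DTG mice (limma adjusted p = 0.0898) and -1.40 ± 0.49 in wild-type mice (limma adjusted p = 0.658). Aacs, which activates acetoacetate for lipid synthesis, was at 487, 559, 127 and 107 in DTG mice, against 680, 1450 and 842 on the normal diet, a log2 difference of -1.93 ± 0.68 (limma adjusted p = 0.162). Fgf21, a hormone made by the fasting liver under PPARA, had 63.5, 171, 766 and 292 in DTG mice, 242, 153, 237 and 102 in wild-type high-fat mice and 173, 180 and 1443 on the normal diet, with single arrays high in both DTG and normal-diet mice. Its log2 difference for DTG against wild-type high-fat mice was 0.36 ± 0.77.

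**Figure D5:**
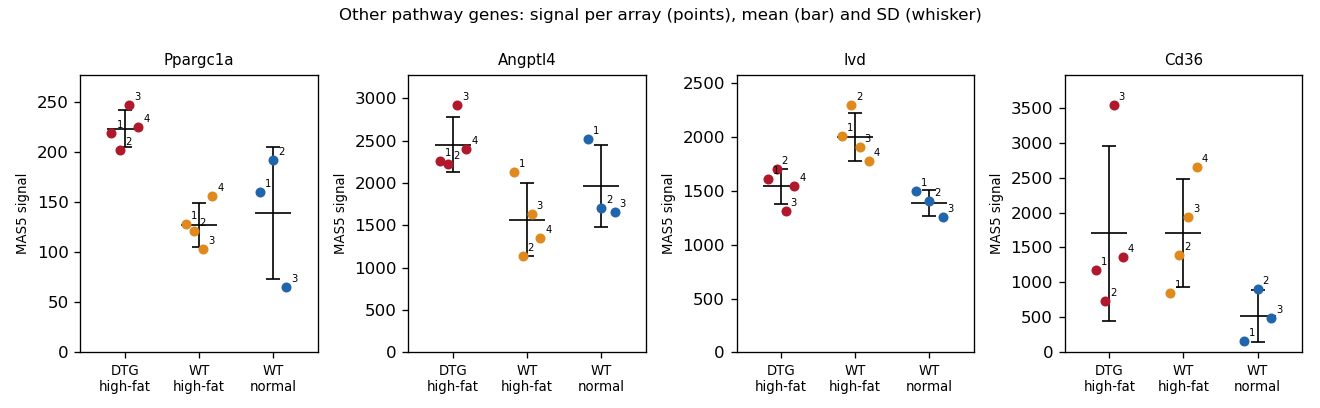
MAS5 signal (y axis, linear, from 0) of 4 other pathway genes in DTG high-fat, wild-type high-fat and wild-type normal-diet mice, with 1 numbered point per array, the mean as a bar and the SD as whiskers. All DTG points of Ppargc1a and Angptl4 lie above the wild-type high-fat points, and those of Ivd lie below them.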

How the data were processed

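Biotin-labelled cRNA from total liver RNA was hybridised, per the labels' protocols, and the series design counts 1 mouse per sample. The deposited values are linear intensity values (signal) that the authors made with MAS5, according to the submitters' processing notes. Detection calls were not used here. Signals below 1 (1386 values) were raised to 1 and log2 was taken. Probe sets with several gene symbols (691 of 22690), with none (1555) or serving as controls (64) were left out, as were the lowest 40% by mean log2 signal. Each gene was represented by its brightest probe set.

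Groups came from the sample titles. Limma (version 3.58.1, R version 4.3.3) was fitted once on all 11 arrays with a mean for each group and eBayes moderation along an intensity trend. Tests were two-sided and adjusted by Benjamini-Hochberg over all genes (threshold 0.05), with intervals at 95%. Further probe sets of a gene have p-values from a fit on every probe set with 1 symbol. The code was tested on simulated data. The alternatives were quantile normalization, a pseudocount of 32, no filter or a 60% filter, no trend, array weights, only the compared groups, a replicate block, and arrays left out. The genes and lists were chosen with earlier results of these data known. Values on every array are given for the carnitine shuttle, the main dehydrogenases, the trifunctional protein, Bdh1, Acat1, Ppara, Pdk4 and the 6 genes of smallest p in the genotype and diet comparisons. Of other pathway genes, the 3 of smallest p per comparison, Fgf21 and Ppargc1a are named. Acot2, the separation counts and the array pattern were chosen after their values were seen.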

Additional observations from a re-analysis of the deposited data

Results flagged for a closer look

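In groups of 4 arrays, 2 of the 29 genes had an array far from the others, both on wild-type high-fat array 2. Hadha had a signal of 4057 there, with a gap to the next array of 0.862 of the group's range, both taken on log2 signals. Slc22a5 had 335.5 there, with a gap of 0.861 on the same log2 scale. In DTG mice 0 of the 29 genes were singled out in this way. Chance singles out about 1 in 20 groups, and over all genes the share was 5.46% in DTG mice and 5.51% in wild-type high-fat mice.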

How the results depend on the processing

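The count of called genes of the pathway was 0 under 50 of 51 alternatives over the 3 comparisons, and 1 (Cpt1a, log2 difference 0.70, limma adjusted p = 0.0412) in DTG mice against the normal diet without DTG array 1. Over all genes, the 29 calls between DTG and wild-type high-fat mice became 12 without a filter, 0 without an intensity trend, 58 with array weights, 8 with only the compared groups, 4 without DTG arrays 3 and 4, and 0 to 64 with single arrays left out. The 0 diet calls became 1 with array weights, 2 with the replicate block and 0 to 2 with single arrays left out. At an unadjusted p under 0.05 there were 556 genes in limma for diet. The 165 calls of DTG mice against the normal diet became 81 without a trend, 104 with only those groups, 23 without DTG arrays 3 and 4, and 36 to 162 with single arrays left out. Fewer arrays or genes entered several of these fits, and the cause of the shifts was not tested.

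Without DTG arrays 3 and 4 the median over the 29 genes was -0.14 against wild-type high-fat mice, Pdk4 turned to -0.034, and 8 genes were separated (7 downward, among them Cpt2, Acadl and Hadh) where 12.4% of all genes were separated upward and 9.65% downward. Against the normal diet, 1 was then separated upward and 8 downward (18.4% and 14.6% of all genes), and without DTG array 3 alone 1 upward and 1 downward (11.8% and 9.78%), in all 9 and 2. Of 915 alternative values of 18 named genes, 69 changed sign where the difference was smaller than its own SE. Correlations of deviations between same-numbered arrays were 0.084 to 0.292 for DTG and wild-type high-fat arrays and -0.072 to 0.029 between diets. For DTG and normal-diet arrays they were -0.059 to 0.111. Differently numbered arrays were not compared, so whether the numbers pair the arrays was not tested. The replicate block left 0 pathway genes called. DTG array 3 stands apart in its controls, and without detection calls the dim genes Pdk4 and Acot2 are least certain.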
